A study of Mus musculus with 3 samples.

Results

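The Gadd45 genes of the mouse, Gadd45a, Gadd45b and Gadd45g, were followed in embryonic stem cells whose protein synthesis had been blocked with cycloheximide. They were chosen by symbol, with their levels, their shares of cells with a transcript and their co-expression at 6 h in these data already known, and are 3 of the 32285 genes counted. All values that chose them are given as description, without a test. The cells were E14 mouse embryonic stem cells (a line of 129/Ola background), grown on gelatin with serum and leukemia inhibitory factor, LIF. At 24 h after seeding, 1 culture received 250 µg/mL cycloheximide in 0.007% ethanol for 3 h, another received the same for 6 h, and the control received ethanol alone for 6 h. Each condition is 1 library of single-cell 3' RNA sequencing (10x Genomics Chromium, v3 chemistry), made from cells that had been detached, frozen and shipped on dry ice. With 1 library per group there is no replicate and no test between groups: every interval below is a 95% interval of counting error only, and treatment and library cannot be told apart. No ethanol library of 3 h was analysed here, so the 3 h library is set against ethanol for 6 h.

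Gadd45 proteins are small acidic proteins, mostly nuclear, named for growth arrest and DNA damage. They have no known enzyme activity and act by binding others: the kinase MAP3K4 upstream of p38 and JNK, CDK1 with cyclin B, the sliding clamp PCNA and the inhibitor p21, and they have been linked to active DNA demethylation with TET enzymes and TDG. Their genes respond to stress, and their transcripts are short-lived. Gadd45a and Gadd45b mRNAs are known substrates of nonsense-mediated decay, which needs translation, and cycloheximide, which stalls elongating ribosomes, is known to stabilise such transcripts.

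Gadd45a (ENSMUSG00000036390) lies on the minus strand at chr6:67035096-67037457, Gadd45b (ENSMUSG00000015312) on the plus strand at chr10:80930073-80932204 and Gadd45g (ENSMUSG00000021453) on the plus strand at chr13:51846678-51848468 (GRCm38, GENCODE M21). The bases upstream of each are shown because the 3 genes differed in the size and the timing of their change. They come from RefSeq promoters on GRCm38.p6 and stop before the first base of the GENCODE gene: chr6:67037458-67037657 for Gadd45a, chr10:80929841-80930072 for Gadd45b and chr13:51846425-51846674 for Gadd45g. Each is written 5' to 3' on the gene's strand. Capitals mark, on either strand, a CCAAT box, a TATA box and an E-box (both spelled out in the next paragraph) or the octamer ATTTGCAT, and in Gadd45g the octamer overlaps a C/EBP-ATF element, TGATGCAA.
Gadd45a: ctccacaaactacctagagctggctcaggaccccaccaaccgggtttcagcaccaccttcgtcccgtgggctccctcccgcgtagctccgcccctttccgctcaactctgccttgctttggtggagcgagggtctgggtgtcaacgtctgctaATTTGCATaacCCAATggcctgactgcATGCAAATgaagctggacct
Gadd45b: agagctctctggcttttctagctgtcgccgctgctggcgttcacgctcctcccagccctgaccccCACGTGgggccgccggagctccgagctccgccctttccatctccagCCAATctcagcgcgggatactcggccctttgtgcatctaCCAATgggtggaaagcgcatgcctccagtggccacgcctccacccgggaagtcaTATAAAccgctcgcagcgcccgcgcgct
Gadd45g: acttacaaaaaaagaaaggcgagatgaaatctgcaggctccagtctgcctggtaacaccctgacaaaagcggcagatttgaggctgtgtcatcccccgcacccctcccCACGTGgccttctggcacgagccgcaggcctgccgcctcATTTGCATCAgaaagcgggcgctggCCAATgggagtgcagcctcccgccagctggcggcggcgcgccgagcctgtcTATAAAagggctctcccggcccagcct

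Motifs were searched on both strands from 250 bases before to 50 after the RefSeq start, in the members and in 32851 promoters of the same table. The TATA box TATAAA was found in Gadd45b and Gadd45g and in 13.6% of all promoters, and it was not found in the Gadd45a window. CCAAT was found once in Gadd45a, 2 times in Gadd45b and once in Gadd45g, against 37.4% of promoters with at least 1. The E-box CACGTG was found in Gadd45b and Gadd45g (7.15% of promoters), and the GC box GGGCGG in Gadd45a and Gadd45b (35.7%). TGATGCAA was found in Gadd45g alone of the 3 genes (0.895% of promoters). The octamer, added to the search after the sequences had been seen, was found 2 times in Gadd45a and once in Gadd45g, against 1.74% of promoters with any. A p53 site of 10 bases, 1 decamer of the usual pair, was found in Gadd45a (8.36% of promoters). The cAMP response element TGACGTCA (1.79%), the AP-1 site TGANTCA (7.81%), the FOXO site TGTTTAC (3.65%), the Egr site GCGGGGGCG (2.91%) and the CArG box (1.63%) were in none of the 3 windows. The NF-kappaB site (8.46%) and GGCGCC (11.9%), both added after correlations had been seen, were in none either. The 250 bases upstream held 11 CpG in Gadd45a, 22 in Gadd45b and 16 in Gadd45g, against a median of 6 over all promoters.

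The transcripts differed at their 3' ends. Gadd45a has a 3' UTR of 563 bases with 34.6% GC and 2 AUUUA pentamers, the core of AU-rich elements known to shorten mRNA life. Gadd45b (558 bases, 57% GC) and Gadd45g (489 bases, 60.9% GC) have none, whereas 65.9% of 20463 genes have at least 1 and the median 3' UTR GC is 43.4%. One Gadd45a pentamer lies in the octanucleotide UUAUUUAU, found in 13.6% of genes. It is shown as DNA with 30 bases in all, from base 493 to base 522 after the stop codon, chr6:67035137-67035166 on the minus strand of GRCm38, with the octanucleotide in capitals.
Gadd45a 3' UTR: gatgtgaaaggTTATTTATgataaagtttt

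None of the 3 reference transcripts has an AUG upstream of its start codon (54.9% of genes have 1 or more) or an exon junction after its stop codon (4.5% of genes do). Each has 4 exons.

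The cells used were barcodes with at least 15000 UMIs (unique molecular identifiers, 1 per captured RNA molecule) of which 1 to 20% were mitochondrial: 2187 control cells, 1739 at 3 h and 2554 at 6 h. They held 87.3 to 92.9% of 115188502 to 150987519 UMIs per library, with a median of 43160, 51726 and 46200 UMIs per cell in that order and a median mitochondrial share of 4.58, 3.52 and 2.89%. Pairs of libraries shared 1 to 3 cell barcodes. All 10 stem cell markers, among them Pou5f1, Sox2 and Nanog, were above 10 CPM on average, and together came to 7260, 8205 and 7318 CPM (UMIs per 1000000 UMIs of the library's cells). Dppa5a alone made up 4771, 5327 and 5475 CPM of these sums. The median log2 ratio of the 10 against control was 0.30 at 3 h and -0.24 at 6 h. At 6 h 2 of the 10 had a ratio above 0. Markers of primitive endoderm summed to 7.28 to 10 CPM, of mesendoderm to 4.41 to 7.25 CPM, of 2-cell-like cells to 0.0285 to 0.619 CPM and of fibroblasts to 1.28 to 2.48 CPM, with Col3a1, Postn and Lum at 0 UMIs. The neural list summed to 81.8, 58.7 and 39.4 CPM, of which Tubb3 made up 65.3, 35.1 and 18.6 CPM. Their part in the Gadd45 values was not tested.

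Gadd45g was nearly absent from control cells and became the most abundant of the 3. Its level was 1.09 CPM (0.909 to 1.31, 122 UMIs) in control, 87.2 CPM (85.5 to 89, 9322 UMIs) at 3 h and 292 CPM (289 to 295, 41018 UMIs) at 6 h. Every later library lay above the earlier one with no overlap of the counting intervals. The 6 h level was 266-fold the control level, or 8.05 on the log2 scale (7.80 to 8.33), and 3.35-fold the 3 h level, a log2 ratio of 1.74 (1.71 to 1.78). The log2 ratio at 3 h was 6.31 (6.06 to 6.59).

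Gadd45b, known for its induction by NF-kappaB and TGF-beta signalling and for restraining the JNK kinase MKK7, also stepped up at both times. It stood at 12.7 CPM (12.1 to 13.4, 1420 UMIs) in control, 91.6 CPM (89.8 to 93.5, 9789 UMIs) at 3 h and 150 CPM (148 to 152, 21041 UMIs) at 6 h. Against control it was 7.19-fold higher at 3 h (log2 ratio 2.85, 2.77 to 2.93) and 11.8-fold higher at 6 h (3.56, 3.48 to 3.64). Between 3 and 6 h the log2 ratio was 0.71 (0.68 to 0.75).

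Gadd45a, the member best known as a direct target of p53, had most of its change by 3 h. It stood at 38.9 CPM (37.8 to 40.1, 4337 UMIs) in control, 134 CPM (131 to 136, 14275 UMIs) at 3 h and 138 CPM (136 to 140, 19410 UMIs) at 6 h. Both treated libraries lay above control, by log2 ratios of 1.78 (1.73 to 1.83) and 1.83 (1.78 to 1.88), or 3.43-fold and 3.55-fold. Between 3 and 6 h its log2 ratio was 0.05 (0.02 to 0.08), and the sign turned with the scaling: it was -0.06 with TMM factors (trimmed mean of M values) and -0.11 as UMIs per cell, so no direction is given.

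**Figure D1:**
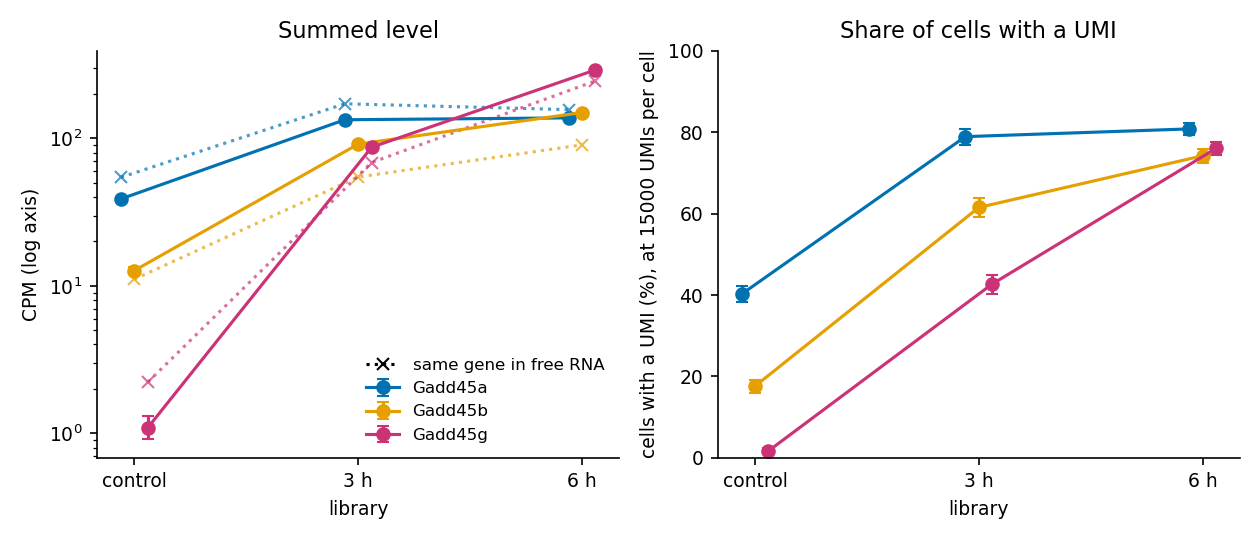
Left, summed level of each Gadd45 gene in each library in CPM on a log axis (solid lines, exact Poisson intervals of 95%), with the same gene in free RNA as crosses. Right, percent of cells with at least 1 UMI after each cell was thinned to 15000 UMIs (exact Clopper-Pearson intervals of 95%). Gadd45g goes from 1.09 to 292 CPM and from 1.69 to 76% of cells, while Gadd45a is level between 3 and 6 h.

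The order of the members turned around over the time course. Set per length of the reference transcript, the levels in control were 31.8 CPM per kb for Gadd45a, 9.92 for Gadd45b and 1.02 for Gadd45g. At 3 h they were 109, 71.4 and 81.5 CPM per kb, and at 6 h 113, 117 and 273 CPM per kb. UMIs count 3' ends, so CPM needs no division by length, and the transcripts have 1071 to 1284 bases. At 3 h the division changes the order. By CPM, Gadd45b (91.6) lay above Gadd45g (87.2) there, the reverse of the values per kb. In control and at 6 h the order was the same either way. The 3 genes together came to 52.8 CPM in control, and this sum was 312 CPM after 3 h and 581 CPM after 6 h of cycloheximide. Gadd45a held 73.8% of the family's UMIs in control and 23.8% at 6 h, Gadd45b held 24.2 and 25.8%, and Gadd45g held 2.08 and 50.3%.

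Among the 7608 genes that averaged 10 CPM or more, 4.32% were at least 2-fold higher at 3 h than in control and 8.65% at 6 h, and 3 of the 3 Gadd45 genes were so at both times. The rule used these contrasts, so the counts are a description. Between 3 and 6 h, 0.145% of the genes (11) were at least 2-fold higher, and of the members Gadd45g was 1 of them. Ranked by log2 ratio among these 7608 genes, Gadd45g stood first in all 3 comparisons, which share libraries. The floor is a mean over the 3 libraries, so Gadd45g, at 1.09 CPM in control, passed it only through the treated libraries. A gene this low in control enters the ranking only if it is higher with treatment, so the rank is partly set by the floor. Gadd45b stood at rank 16 at 3 h and 12 at 6 h against control, and Gadd45a at ranks 68 and 127. By level, Gadd45g moved from rank 11664 of the genes with a UMI in control to rank 1847 at 3 h and 531 at 6 h. The median log2 ratio of all genes was 0.11 at 3 h and 0.17 at 6 h, and TMM factors shift every ratio by -0.17 at 3 h and -0.29 at 6 h, which leaves the members past 2-fold against control. Of the genes past 2-fold either way, 89.4% were higher at 3 h and 78.2% at 6 h, and with TMM factors 77.5 and 47.4%.

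**Figure D2:**
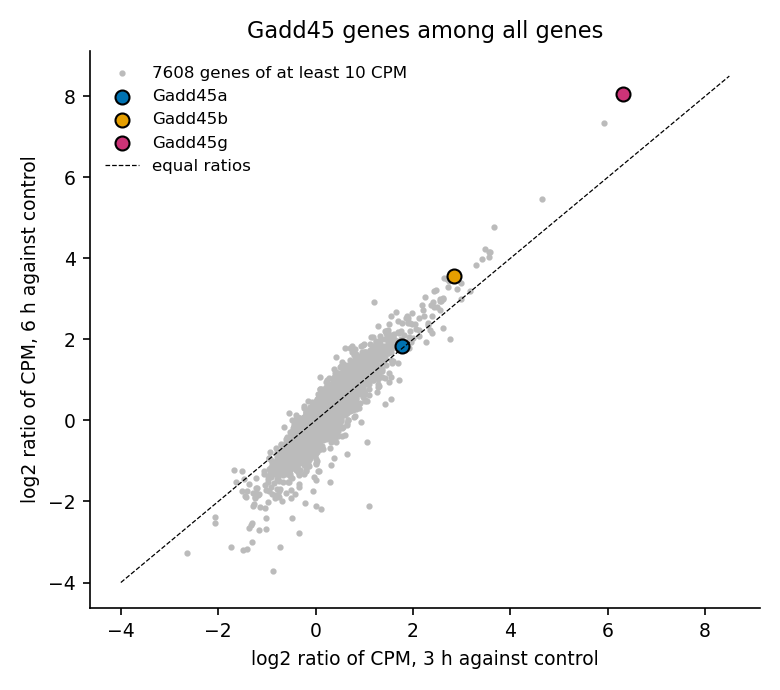
Each point is a gene, with its log2 ratio of CPM at 3 h against control on the x axis and at 6 h against control on the y axis, over the 7608 genes averaging 10 CPM or more. The axes share the control library. Gadd45g lies at 6.31 and 8.05, Gadd45b at 2.85 and 3.56, both above the line of equal ratios, and Gadd45a at 1.78 and 1.83, close to it.

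The genes nearest to each member by the pair of log2 ratios at 3 and 6 h, over 3 libraries, included histone genes for all 3. For Gadd45g the nearest was the histone gene Hist1h2aa, at log2 ratios of 5.93 and 7.35, a distance of 0.797. The next 4 were Hist3h2a, A930015D03Rik, 2410006H16Rik and Hist1h2bc, at distances of 3.07 to 4.74. For Gadd45b they were the histone genes Hist3h2ba and Hist1h2be, the snoRNA host genes Snhg16 and Snhg17, and 1600020E01Rik, all within 0.211. For Gadd45a they were Hist1h2bf, Zfp949, Icam1, St7l and Hist1h3f, within 0.104. Icam1, an adhesion molecule, was close to Gadd45a in level too, at 36.8, 120 and 136 CPM.

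A larger share of cells held each transcript in both treated libraries than in control. With each cell thinned to 15000 UMIs, a Gadd45g UMI was found in 1.69% of cells in control (1.19 to 2.32%). The share was 42.7% in the 3 h library (40.3 to 45%) and 76% in the 6 h library (74.3 to 77.6%). For Gadd45b the shares were 17.6% (16 to 19.2%), 61.5% (59.2 to 63.8%) and 74.2% (72.5 to 75.9%). For Gadd45a they were 40.2% (38.2 to 42.3%), 78.9% (76.9 to 80.8%) and 80.8% (79.2 to 82.3%). The order of the members by share was the same in control and at 3 h, Gadd45a highest, and at 6 h the Gadd45b and Gadd45g intervals overlapped. Without thinning the shares were 3.38, 61.3 and 89.3% for Gadd45g, 41.2, 87.2 and 91.3% for Gadd45b, and 74.3, 95.6 and 96.4% for Gadd45a. Free RNA, read from barcodes with 10 to 100 UMIs, held Gadd45g at 2.22, 68.7 and 246 CPM, Gadd45b at 11.1, 54.8 and 90.5 CPM and Gadd45a at 54.5, 172 and 157 CPM. If free RNA made up 10% of every cell, it alone would put a UMI of Gadd45g in 0.333, 9.79 and 30.8% of thinned cells, of Gadd45b in 1.65, 7.89 and 12.7% and of Gadd45a in 7.85, 22.7 and 21%. The measured shares exceed these in all 9 cases. Free RNA CPM was 0.598 to 2.03 times cell CPM, so an assumed share of 10% was bound to give less. The comparison cannot tell how much free RNA adds to the shares. The true amount of free RNA in a cell was not measured.

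The members also differed in how evenly cells held them. At 6 h, 24% of thinned cells had 0 Gadd45g UMIs, where Poisson sampling at the mean of 4.44 UMIs per cell would leave 1.18%, and 13.7% of cells (351) had 10 or more. At 3 h, 57.3% had 0 (Poisson 24%), and the top 10% of cells held 61% of Gadd45g UMIs, against 39.7% at 6 h. The Fano factor, the variance over the mean, which is 1 for Poisson counts, was 7.72 for Gadd45g at 3 h and 7.24 at 6 h. For Gadd45b it was 1.07 in control, 2.74 at 3 h and 3.05 at 6 h, and 25.8% of 6 h cells had 0 UMIs where Poisson gives 9.94%. For Gadd45a it was 1.19, 1.56 and 1.69, and the 6 h share of zeros was 19.2% against 12.1%. In the whole, unthinned cells the highest Gadd45g count in a single cell was 10 in control, 137 at 3 h and 226 at 6 h. The highest Gadd45a counts were 14, 43 and 50. Counts of different genes were not scaled to length here, so the spread of each gene is to be read against its own mean. The Fano factor can also rise with the mean alone. Less 1 and divided by the mean, it was 0.327, 0.286 and 0.324 for Gadd45a in control, 3 h and 6 h. For Gadd45b this value was 0.348, 1.29 and 0.889. For Gadd45g it was 31.3 in control, where 37 cells had a UMI, then 4.71 and 1.41.

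**Figure D3:**
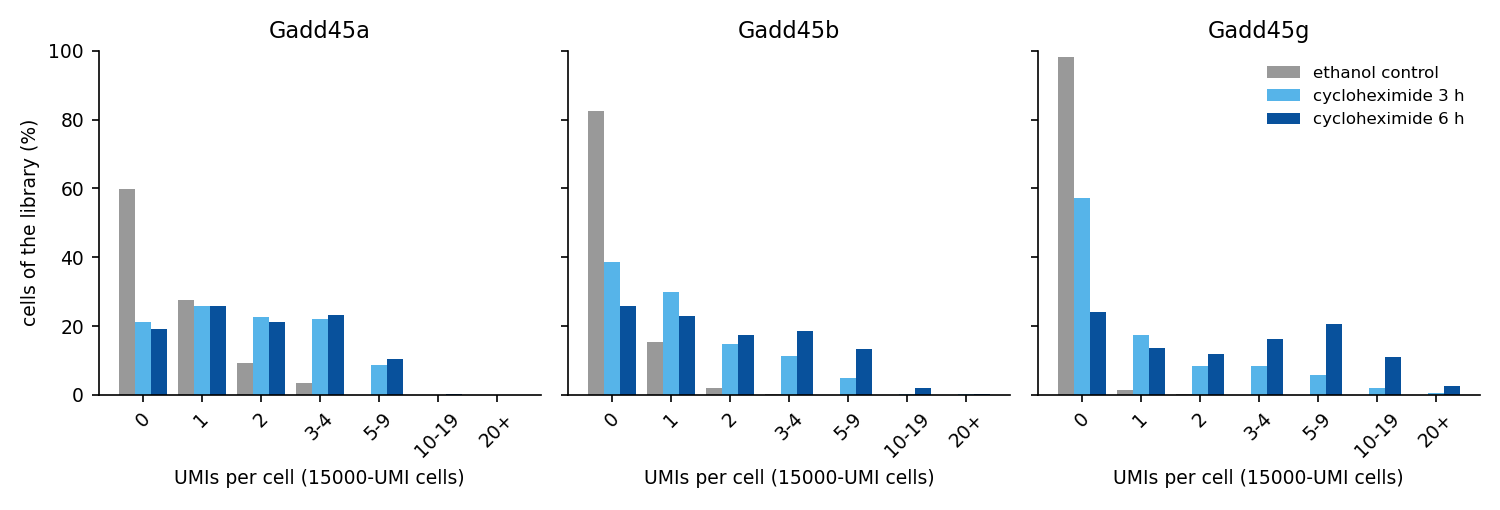
Percent of cells (y) by number of UMIs of each Gadd45 gene in the cell (x, bins) after thinning to 15000 UMIs, for the control, 3 h and 6 h libraries. Gadd45a shifts between control and 3 h and then keeps its shape, while the share of cells with 0 Gadd45g UMIs goes from 98.3 to 57.3 and 24%.

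Across cells at 6 h, the pair with the highest coefficient was Gadd45b with Gadd45g. Spearman's rho over 2554 cells of 1 library was 0.31 for Gadd45b with Gadd45g, 0.11 for Gadd45a with Gadd45b and 0.05 for Gadd45a with Gadd45g. Over 1739 cells at 3 h the values were 0.10, 0.09 and 0.01, and over 2187 control cells 0.01, -0.00 and 0.04. These coefficients describe cells of 1 library that share its depth and its free RNA. In cells with 0 Gadd45g UMIs at 6 h (614), Gadd45b stood at 96.4 CPM. It stood at 123 CPM in the 869 cells with 1 to 3, 181 CPM in the 720 with 4 to 9 and 275 CPM in the 351 with 10 or more. Gadd45a stood at 130, 140, 151 and 141 CPM in the same cells. Median depth in these 4 sets was 44207, 48498, 48855 and 42091 UMIs, lowest in the cells with the most Gadd45g. In 3 equal sets of 6 h cells by UMIs per cell, low to high, Gadd45g stood at 344, 248 and 296 CPM. Gadd45b stood at 171, 145 and 145 CPM there, and Gadd45a at 147, 141 and 135 CPM. Whether depth bears on these levels was not tested. All 3 transcripts were found in 0.229% of control cells, 22.7% at 3 h and 49% at 6 h, and none of them in 48.6, 4.83 and 1.72%.

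The genes whose counts followed each member across the 6 h cells differed in part. Coefficients cover 6911 genes with a mean of at least 0.2 UMIs per thinned cell. Shared genes included Junb, at 0.16, 0.25 and 0.17 with Gadd45a, Gadd45b and Gadd45g, and Hist1h2ap, at -0.11, -0.27 and -0.40. Gadd45g had the highest coefficients. It was highest with Id1 (0.47), Id3 (0.40), Cdkn1c (0.38) and Id2 (0.37). Id1, Id2 and Id3 encode inhibitors of helix-loop-helix factors that are known to be induced by BMP signalling, and Cdkn1c encodes the CDK inhibitor p57. Gadd45b (0.31) was next, then Cdc20 (0.30), an activator of the anaphase-promoting complex, Cenpa (0.24), the centromeric histone H3, Skil (0.23), Dusp9 (0.23) and Ier2 (0.21). The lowest were histone genes: Hist1h2ap (-0.40), Hist1h2ae (-0.35), Hist3h2a (-0.28), Hist1h2bc (-0.28) and Hist1h3c (-0.27). Of the 6911 coefficients of Gadd45g, 28 were above 0.2 or below -0.2, against 15 for Gadd45b and 3 for Gadd45a. Mean UMIs per thinned 6 h cell had the same order, at 4.44, 2.31 and 2.11. The part of abundance and thinning depth in these counts was not tested.

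Gadd45b had part of the same partners. Id1 was highest (0.34), before Gadd45g (0.31), Id3 (0.30), Junb (0.25), Ckb (0.25), Id2 (0.21), Ldhb (0.21), Icam1 (0.21), Cdc20 (0.20) and Cdkn1c (0.19). Its lowest were Hist1h2ap (-0.27), Hist1h2ae (-0.23), Hist1h2bc (-0.22), Hist1h2bj (-0.21) and Tubb4b (-0.21).

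Gadd45a was led by other genes. Icam1 was highest (0.27), before Nfkbia (0.25), which encodes the NF-kappaB inhibitor, and G3bp2 (0.23), a stress granule protein. In unthinned CPM per cell these coefficients were higher, 0.41 with Icam1 and 0.42 with Nfkbia, beside 0.40 for Gadd45b with Id1 and 0.54 for Gadd45g with Id1, so the order of Gadd45a and Gadd45b by their highest coefficient depends on thinning. Then came Mtf2 (0.18), Junb (0.16), Tmsb4x (0.16), Cited4 (0.16), Relb (0.15), a subunit of NF-kappaB, B3gnt7 (0.14) and Calr (0.14). Icam1, Nfkbia and Relb are known targets of NF-kappaB. The lowest were Hist3h2a, Eef1a1 and Ubb (each -0.13), 2410006H16Rik (-0.11) and Hist1h2ap (-0.11). Set against the other members' partners, Gadd45a had 0.07 with Id1 and -0.01 with Id2, while Gadd45g had 0.06 with Icam1 and 0.05 with Nfkbia. Gadd45b had coefficients of 0.21 with Icam1 and 0.18 with Nfkbia beside those with Id1 and Id3, and so lay between the others on both sets.

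The leading pairs had the same sign in the 3 h library, which was not used to choose the partners. There Gadd45g had 0.34 with Id1, 0.24 with Id3, 0.23 with Cdkn1c, 0.27 with Id2 and -0.30 with Hist1h2ap. Gadd45a had 0.18 with Icam1 and 0.21 with Nfkbia at 3 h. Gadd45g with Ier2 did not keep its sign, at -0.06 at 3 h. In control cells, where Gadd45g was found in few cells, its coefficients with these genes lay near 0: -0.00 with Id1, 0.08 with Id2 and 0.06 with Id3. Gadd45a, found in more control cells, had -0.01 with Icam1 and 0.04 with Nfkbia there.

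**Figure D4:**
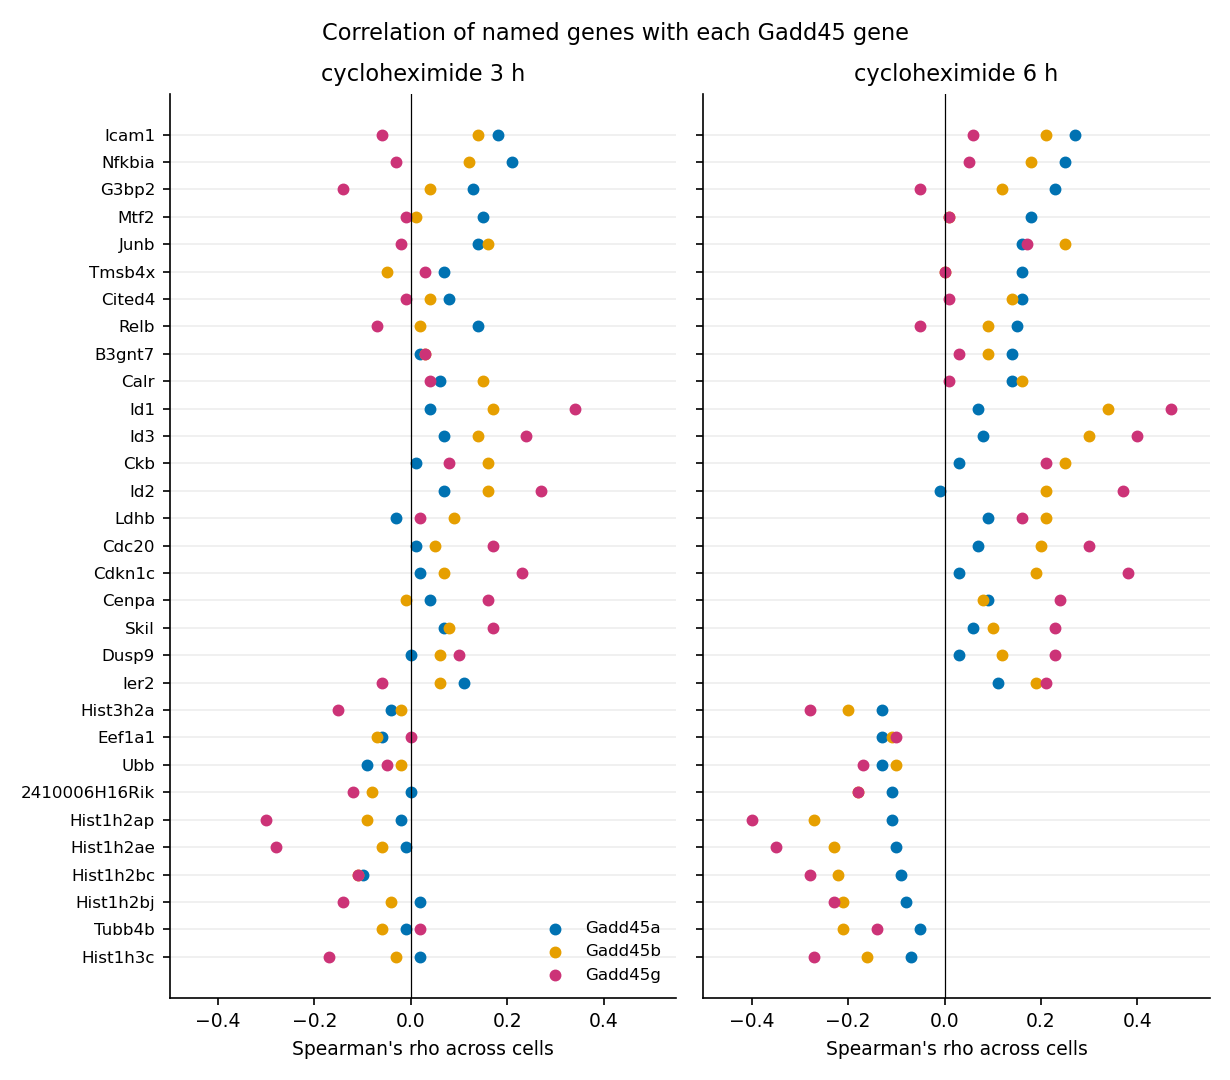
Spearman's rho across cells (x) of each named gene (y) with Gadd45a, Gadd45b and Gadd45g, at 3 h (1739 cells) and 6 h (2554 cells), cells thinned to 15000 UMIs. Genes were picked at 6 h. The Id genes, Cdkn1c and Cdc20 lie to the right for Gadd45g, and Icam1 and Nfkbia for Gadd45a. At 6 h histone genes lie to the left, furthest for Gadd45g and least for Gadd45a.

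Levels in cells grouped by a partner show the size of these relations. At 6 h, Gadd45g stood at 148 CPM (141 to 155) in the 777 cells with 0 Id1 UMIs and at 583 CPM (565 to 600) in the 497 with 8 or more, and went up at each step between, through 191, 275 and 336 CPM. Gadd45b went from 98.3 CPM (92.7 to 104) to 271 CPM (260 to 284) over the same cells, and Gadd45a from 130 CPM (124 to 137) to 159 CPM (150 to 168). At 3 h, Gadd45g went from 38.3 CPM (33.6 to 43.6) to 185 CPM (175 to 196) from 0 to 8 or more Id1 UMIs. Over whole libraries Id1 stood at 242, 310 and 254 CPM in control, 3 h and 6 h, whereas Id3 stood at 46.1, 314 and 185 CPM and Id2 at 32.2, 160 and 164 CPM.

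Grouped by Icam1 at 6 h, Gadd45a and Gadd45b went up at each step, and Gadd45g did not. At 6 h Gadd45a stood at 103 CPM (95.9 to 110) in the 560 cells with 0 Icam1 UMIs, and at 122, 150 and 192 CPM in cells with 1, 2 to 3 and 4 to 7. It reached 242 CPM (203 to 286) in the 38 with 8 or more. Gadd45b went from 115 to 256 CPM over the same cells. Gadd45g stood at 267, 289, 302, 338 and 239 CPM, without the steady climb seen over Id1. At 3 h Gadd45g was lower in cells with 4 to 7 Icam1 UMIs (89.1 CPM, 79.7 to 99.2) than in cells with 0 (116 CPM, 108 to 124), while Gadd45a was higher (165 against 101 CPM).

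**Figure D5:**
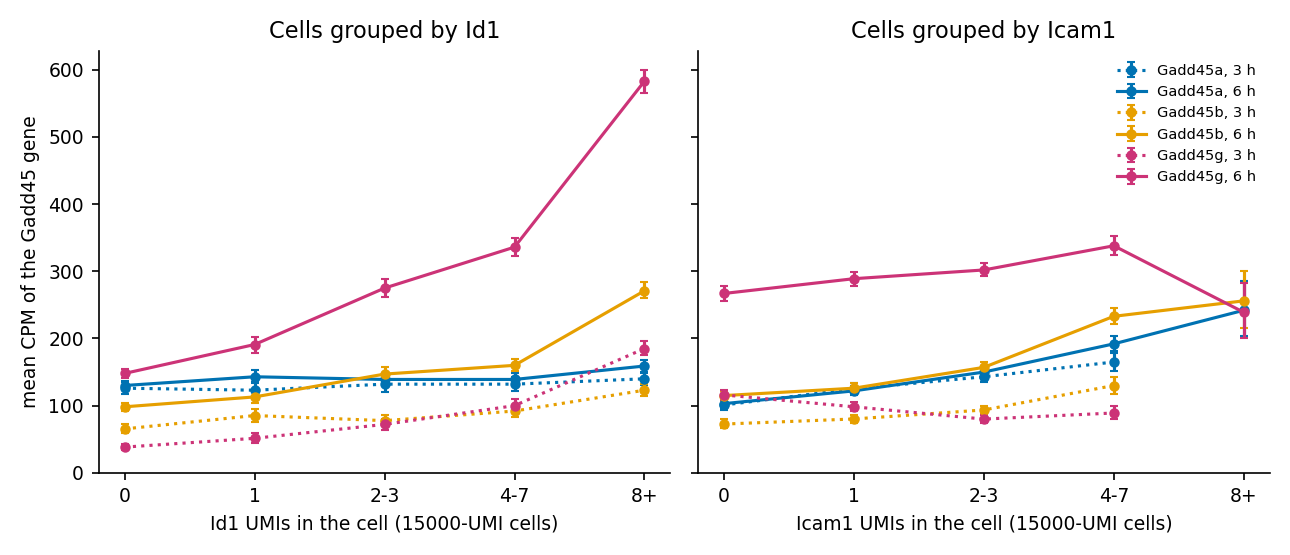
Mean level of each Gadd45 gene (y, CPM, with exact Poisson intervals of 95%) in cells grouped by their Id1 UMIs (left) or Icam1 UMIs (right) after thinning to 15000 UMIs, at 3 h (dotted) and 6 h (solid). Bins of fewer than 20 cells are left out. Gadd45g climbs from 148 to 583 CPM over Id1 at 6 h and Gadd45a from 103 to 242 CPM over Icam1.

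Hist1h2ap encodes a replication-dependent histone H2A. At 6 h Gadd45g stood at 491 and 499 CPM in cells with 0 to 4 and 5 to 14 Hist1h2ap UMIs, and at 264, 174 and 131 CPM in cells with 15 to 29, 30 to 59 and 60 or more. Gadd45b went from 217 CPM to 80 CPM between the ends of that range, and Gadd45a from 160 to 134 CPM. Within 3 equal sets of 6 h cells by Hist1h2ap, low to high, Gadd45g with Id1 had coefficients of 0.45, 0.40 and 0.37. Within 3 equal sets by UMIs per cell it had 0.50, 0.50 and 0.38. At 3 h this pair had 0.34, 0.37 and 0.27 by Hist1h2ap, and 0.44, 0.29 and 0.24 by UMIs per cell. At 6 h Gadd45b with Gadd45g came to 0.26, 0.20 and 0.19 within the Hist1h2ap sets, below the 0.31 of all cells. Gadd45a with Icam1 came to 0.31, 0.23 and 0.24. With summed S phase genes the coefficient at 6 h was -0.16 for Gadd45g, -0.09 for Gadd45b and -0.02 for Gadd45a. With summed G2/M genes it was 0.20 for Gadd45g at 3 h and 0.01 at 6 h, and -0.17 for Gadd45b at 6 h. In 3 equal sets of 6 h cells by summed G2/M genes, low to high, Gadd45g stood at 336, 246 and 306 CPM. Its lowest level was thus in the middle set, which a rank coefficient does not show. Whether the cell cycle bears on the Gadd45 levels was not tested.

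The genes of proteins that Gadd45 is known to bind, and the lists after them, are set against the share of all 7608 genes past 2-fold. That share was 4.32% higher and 0.513% lower at 3 h, 8.65% higher and 2.41% lower at 6 h, and 0.657% lower between 3 and 6 h. Of 7 kinase genes above 10 CPM (Map3k4, Map2k3, Map2k4, Map2k7, Mapk8, Mapk9, Mapk14), 0 were 2-fold higher or lower at either time, and their median log2 ratio at 6 h was 0.22. The extremes at 6 h were Map2k7 (0.50) and Mapk14 (0.42) above, and Mapk8 (-0.25) and Mapk9 (-0.24) below. Of the 5 cell cycle partners, 1 was higher at 6 h: Cdkn1a, which encodes p21, at 28.3, 30.5 and 60.1 CPM (log2 ratios 0.10 and 1.08). With TMM factors Cdkn1a would not pass 2-fold. Cdk1 (-0.48) and Ccnb1 (-0.67) were the lowest of them. Of 7 demethylation genes, 1 was 2-fold lower at 6 h, the dioxygenase gene Tet2 (89.7, 62.5 and 34.4 CPM, log2 ratio -1.38), followed by Tet1 (-0.87, past 2-fold with TMM factors), while the highest were the repair nuclease gene Ercc5 (0.94) and Apex1 (0.54).

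Of 4 relatives by name, Ddit3, also called Gadd153, was 2-fold higher at both times (13.4, 28.1 and 29.9 CPM, log2 ratios 1.06 and 1.15), though at neither time with TMM factors. Ppp1r15a, also called Gadd34, was not (30.8, 30.9 and 26.7 CPM), nor Ppp1r15b (30.9, 29.6 and 20.4 CPM), nor Gadd45gip1, whose product binds Gadd45 proteins (136, 133 and 133 CPM). Of 14 known upstream factors above 10 CPM, 1 was 2-fold higher at 6 h, Atf4 (1.07), next to Rela (0.84), and 2 were lower, Myc (-2.40) and Egr1 (-2.10). Egr1 had been 2-fold higher at 3 h (1.09). With TMM factors neither Atf4 at 6 h nor Egr1 at 3 h would pass, and Nfkb1 (-0.96) would be lower at 6 h. Trp53 was at 406, 437 and 418 CPM. Of 17 p53 targets, 2 were higher at 6 h, Rrm2b (1.20) and Cdkn1a (1.08), 0 were lower, shares near those of all genes (8.65% higher, 2.41% lower), and the median log2 ratio was 0.09, against 0.17 over all genes. The lowest were Sesn2 (-0.81) and Zmat3 (-0.45). With TMM factors 0 p53 targets would be higher and 1, Sesn2, would be lower.

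Of 10 targets of the integrated stress response, 1 was 2-fold higher (Ddit3, 1.15) and 2 were lower, Chac1 (-3.13) and Trib3 (-2.10). Nupr1 (0.34) was next to Ddit3. With TMM factors 0 of these would be higher and 3 lower, Sesn2 being the added one. Of 13 immediate early genes, 5 were 2-fold higher and 1 lower at 3 h (3 and 2 with TMM factors). At 6 h 2 were higher, Klf6 (1.79) and Jun (1.01, a value that TMM factors would take below 2-fold), and 5 were lower, with Fos (-2.71) and Myc (-2.40) lowest. Between 3 and 6 h, 7 of these 13 were at least 2-fold lower (0.657% of all genes) and 0 had a log2 ratio above 0, whereas Gadd45g and Gadd45b went up and Gadd45a had no fixed sign. Across 6 h cells, the summed immediate early genes had a coefficient of 0.28 with Gadd45g, 0.26 with Gadd45b and 0.14 with Gadd45a.

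Of 20 genes with transcripts known to be sensitive to nonsense-mediated decay, 7 were 2-fold higher at 3 h and 8 at 6 h, 0 were lower, and the median log2 ratio was 0.62 and then 0.85, beside 0.11 and 0.17 over all genes. With TMM factors 6 were higher at each time, and the medians were 0.44 and 0.57. Those 6 were all snoRNA host genes: Gas5, Snhg1, Snhg5, Snhg12, Snhg15 and Zfas1. The others, Ddit3 at both times and Atf4 at 6 h, passed 2-fold only without TMM factors. Snhg15 (52.2, 618 and 933 CPM) and Zfas1 (52.2, 621 and 852 CPM), both snoRNA hosts, had the highest ratios, 4.16 and 4.03 at 6 h. Hnrnpl (-0.05) and Smg5 (0.03) had the lowest. By the 6 h ratio Gadd45b, at 3.56, lay between Snhg1 (3.84) and Snhg12 (3.30), and Gadd45a, at 1.83, between Snhg5 (2.00) and Ddit3 (1.15), neighbours picked after their values were seen. Across 6 h cells, where that list's sum was compared with each member, the coefficients were -0.10 for Gadd45a, -0.15 for Gadd45b and -0.09 for Gadd45g. Of 10 decay factor genes 0 passed 2-fold, with Upf2 (1.00, just under it) and Smg9 (0.94) highest and Upf3a (-0.42) and Smg8 (-0.34) lowest. Of 7 genes for proteins that bind AU-rich elements, 1 was lower, Zfp36l1 (-1.24), followed by Zfp36l2 (-0.96, past 2-fold with TMM factors), while Tia1 (0.64) and Elavl1 (0.22) were highest.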

How the data were processed

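The values are the deposited UMI counts per gene and barcode of 3 libraries, which the authors made with Cell Ranger 4.0.0 on mm10, per the submitters' processing notes. The annotation is not given in the sources used here. Cells were barcodes with at least 15000 UMIs and 1 to 20% mitochondrial UMIs, and no doublet caller was run. Counts were summed per library and divided by the library's cell UMIs, as CPM. Ratios are log2 with a prior of 0.5 counts. Intervals are exact (Poisson, conditional binomial, Clopper-Pearson). Shares, spreads and Spearman coefficients used cells thinned without replacement to 15000 UMIs. The members, gene lists and tests were chosen with earlier results of these data known. Genes named are the members, up to 2 genes of each list at either end of the 6 h ratio, the 10 highest and 5 lowest coefficients per member at 6 h and the 5 nearest genes by ratio. Python 3.11.15, scipy 1.17.1 and, for TMM factors, edgeR 4.0.16 were used. The procedures were tested on simulated data. Promoters are RefSeq's, and transcripts GENCODE M21. Alternatives are in the closing section.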

Additional observations from a re-analysis of the deposited data

How the results depend on the processing

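Of 63 alternative log2 ratios of the Gadd45 genes, 46 stayed within the counting interval of the reported value, 15 moved outside it and 2 changed sign. With TMM factors the ratios at 3 h against control were 1.60 for Gadd45a and 2.67 for Gadd45b, those at 6 h 1.54, 3.27 and 7.77 for Gadd45a, Gadd45b and Gadd45g, and those of 6 h against 3 h -0.06, 0.60 and 1.63. As mean UMIs per cell, the ratios at 3 h were 2.05 for Gadd45a and 3.12 for Gadd45b, at 6 h 1.94 and 3.66, and between 6 and 3 h -0.11, 0.55 and 1.58 for Gadd45a, Gadd45b and Gadd45g. Leaving out cells above 2 times the library's median UMIs gave 0.67 for Gadd45b and 1.66 for Gadd45g between 6 and 3 h. Both changes of sign are of Gadd45a between 6 and 3 h. The share of genes at least 2-fold higher was 2.76, 5.58 and 0.0681% with a floor of 50 CPM, 17.6, 28.6 and 14.5% with no floor, and 2.89, 4.68 and 0.0789% with TMM factors (3 h and 6 h against control, 6 h against 3 h). The cause of these shifts was not tested. Of 42 alternative coefficients 15 moved and 0 of those of at least 0.1 changed sign. Gadd45a with Nfkbia moved most, from 0.21 to 0.39 at 3 h and from 0.25 to 0.42 at 6 h in unthinned cells. The alternatives for the partner genes, like the one keeping cells under 1% mitochondrial UMIs, were added after seeing the data. Shares of cells depend on depth (17 of 27 moved): thinned to a greater depth, Gadd45g was found in 49.9% of cells at 3 h and 85.7% at 6 h. No paired analysis was possible because each group has 1 library. With 1 library per group no replicate could be left out, and depth limits Gadd45g in control, where 122 UMIs set its interval.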
